A study of Homo sapiens with 18 samples.

Results

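The genes described here are 9 that act in or on eIF4F, the complex that recruits ribosomes to the 5′ cap of an mRNA: the kinases MKNK2 and MKNK1 (MNK2 and MNK1), the cap-binding protein EIF4E, the scaffold EIF4G1, the helicases EIF4A1 and EIF4A2 with their cofactor EIF4B, and the eIF4E inhibitors EIF4EBP1 and EIF4EBP2. They were found by symbol, 9 of 58735 genes in the RBCK1 and ANKRD35 tables and 9 of 29928 in the MITD1 table. The libraries came from 786-O, a long-established line of clear cell renal carcinoma that lacks functional VHL. RNA was sequenced in 3 libraries a group, for shRBCK1 against shcontrol, siANKRD35 against sicontrol_for_siANKRD35, and siMITD1 against sicontrol_for_siMITD1. RBCK1 is a ubiquitin ligase of the linear ubiquitin chain assembly complex, and the series title places ANKRD35 and MITD1 downstream of it in the response to the kinase inhibitor sunitinib. The labels give the same serum-containing growth medium for all groups and name no drug. The reagents' sequences and the duration of each knockdown are not given in the sources used here. As the genes were selected on their log2 changes and calls in these 3 comparisons, the values below are a description and carry no p-values.

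Levels are in FPKM (fragments per kilobase of annotated exon, scaled to library size). The 3 pairs were normalized separately, so levels are compared within a pair. The RBCK1 libraries held 16346478 to 18648246 recovered reads each, the ANKRD35 libraries 17502646 to 19034974, and the MITD1 libraries 14443655 to 15780394. The targeted genes were low in each knockdown: RBCK1 averaged 31.9 FPKM in shRBCK1 and 480 FPKM in shcontrol, ANKRD35 averaged 0.0111 FPKM in siANKRD35 and 727 FPKM in its control, and MITD1 averaged 2.71 FPKM in siMITD1 and 7.47 FPKM in its control. Control groups of the other tables stood far from some of these levels: RBCK1 was at 70.8 and 65.5 FPKM in them, and ANKRD35 was at 0 and 0.0064 FPKM. Of the renal carcinoma markers, PAX8, PAX2, NNMT and VIM averaged 1 FPKM or more in every group and CA9 did not. Of 10 markers of blood, endothelial and fibroblast cells, LUM alone had a group mean of 1 FPKM or more, in the RBCK1 and MITD1 tables, and COL1A1 reached 1 FPKM in 3 libraries of the MITD1 table. These 10 markers summed to 2.31 to 2.95 FPKM in shRBCK1 and 1.965 to 2.13 FPKM in shcontrol, 0.187 to 0.2575 FPKM in siANKRD35 and 0.426 to 0.604 FPKM in its control, and 3.26 to 3.48 FPKM in siMITD1 and 3.34 to 4.64 FPKM in its control, where 9 of the 10 were in the table; LYZ and DCN were at 0 in both groups of the RBCK1 table. In bulk libraries, fewer cells of a type and less RNA per cell cannot be told apart. A change is called here at an adjusted p under 0.05 in limma, over all genes of a table that reached 1 FPKM in 3 or more of its 6 libraries.

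Cap-dependent translation starts when eIF4E binds the cap and, through the scaffold eIF4G, brings in the helicase eIF4A, which unwinds the leader of the mRNA with help from eIF4B. The 4E-binding proteins hold eIF4E away from eIF4G until the kinase complex mTORC1 phosphorylates them. The MNK kinases are activated by ERK and p38, dock on eIF4G and phosphorylate eIF4E. MYC is known to activate transcription of EIF4E, and ATF4 that of EIF4EBP1. The libraries measure RNA, and neither protein levels nor phosphorylation.

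Promoter sequences from RefSeq (GRCh38.p14, from 250 bases before to 50 after the listed start of the gene) were at hand for 8 of the 9 genes, and 4 are printed: those of EIF4E, EIF4G1 and EIF4B because they hold an E-box, and that of MKNK2 because its RNA changed most. Each is given 5′ to 3′ on the strand of the gene, and capitals mark that E-box, CACGTG, which MYC and related factors bind. The EIF4E window is chr4:98929084-98929383 (minus strand), that of EIF4G1 is the first of 3 listed starts at chr3:184314356-184314655 (plus strand), that of EIF4B is chr12:53006206-53006505 (plus strand) and that of MKNK2 is chr19:2051195-2051494 (minus strand).
EIF4E: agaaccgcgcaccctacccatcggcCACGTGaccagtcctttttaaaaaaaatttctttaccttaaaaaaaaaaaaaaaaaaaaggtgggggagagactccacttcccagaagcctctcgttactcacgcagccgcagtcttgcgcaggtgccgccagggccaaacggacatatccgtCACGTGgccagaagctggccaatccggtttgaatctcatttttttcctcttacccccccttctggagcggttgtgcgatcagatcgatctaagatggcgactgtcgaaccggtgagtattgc
EIF4G1: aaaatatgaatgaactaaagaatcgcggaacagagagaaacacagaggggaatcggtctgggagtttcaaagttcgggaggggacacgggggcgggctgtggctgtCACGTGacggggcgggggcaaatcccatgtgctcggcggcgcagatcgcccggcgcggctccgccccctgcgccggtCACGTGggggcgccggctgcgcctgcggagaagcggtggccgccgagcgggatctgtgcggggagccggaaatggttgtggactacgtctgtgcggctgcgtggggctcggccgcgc
EIF4B: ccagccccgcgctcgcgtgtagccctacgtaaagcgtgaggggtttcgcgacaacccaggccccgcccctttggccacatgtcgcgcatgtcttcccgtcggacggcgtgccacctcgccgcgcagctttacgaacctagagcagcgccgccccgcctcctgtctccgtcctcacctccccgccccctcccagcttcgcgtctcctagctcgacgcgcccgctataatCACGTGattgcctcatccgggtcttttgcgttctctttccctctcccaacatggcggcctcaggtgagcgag
MKNK2: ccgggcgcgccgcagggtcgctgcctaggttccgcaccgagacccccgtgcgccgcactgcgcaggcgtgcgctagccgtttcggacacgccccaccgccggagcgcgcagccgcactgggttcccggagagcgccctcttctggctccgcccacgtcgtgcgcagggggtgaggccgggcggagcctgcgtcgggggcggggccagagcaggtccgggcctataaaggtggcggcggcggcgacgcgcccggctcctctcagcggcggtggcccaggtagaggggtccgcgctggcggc
Counted from the start, the E-boxes of EIF4E begin at −225 and −72, those of EIF4G1 at −144 and −67, and that of EIF4B at −22. The windows of MKNK1, MKNK2, EIF4A1, EIF4A2 and EIF4EBP2, and those of the other listed starts of EIF4G1, held no CACGTG. Searched on both strands, CACGTG occurred in 2548 of 35116 RefSeq promoter windows of 300 bases (7.26%). The motif TGATGNAA, which resembles sites bound by ATF4 with C/EBP partners, occurred in 1270 of them (3.62%) and in none of the windows of these 8 genes. The gene without a window was EIF4EBP1, which was searched for neither motif. Where the motifs abut they can share the letters TG, which did not arise in the windows of these genes, as none held TGATGNAA. A match describes the sequence and is not a measured binding site.

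MKNK2, the MNK kinase with high basal activity, had the largest log2 change of the set in any of the 3 comparisons. It lies on chromosome 19 at 2037465 to 2051244 of GRCh38 (minus strand, ENSG00000099875). It measured 90.5, 87.85 and 88.2 FPKM in the siMITD1 libraries, against 30.0, 30.3 and 30.45 FPKM in sicontrol_for_siMITD1. All 3 knockdown libraries were far above all 3 controls, and the ratio of means was 2.94. The log2 change was 1.52 (SE 0.027), the 14th largest increase among 10415 genes tested in that table, where 0.922% of genes were called higher by at least 1 log2 unit. It rested on 21341 reads in siMITD1 and 6929 in its control.

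In the RBCK1 table MKNK2 was modestly higher in the knockdown. The values were 42.5, 42.3 and 43.2 FPKM in shRBCK1 and 36.9, 36.8 and 34.8 FPKM in shcontrol, with no overlap and a log2 change of 0.23 (SE 0.034), which was called. In the ANKRD35 table the groups overlapped, with 30.7, 18.8 and 26.05 FPKM in siANKRD35 and 28.5, 26.97 and 26.8 FPKM in its control. The log2 change there was −0.14 (SE 0.16) and was not called. It turned to 0.04 without siANKRD35 replicate 2, the library with the lowest MKNK2 of that table.

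MKNK1, the sister kinase whose activity depends more on upstream ERK and p38, lay at 3.89 FPKM or below in every group mean. Its gene is on chromosome 1 at 46557408 to 46616843 (minus strand, ENSG00000079277). In siMITD1 it measured 3.29, 3.74 and 3.38 FPKM, against 3.785, 3.76 and 4.12 FPKM in the control. These values lay just below the controls, and the log2 change of −0.13 (SE 0.061) was not called. The groups overlapped in the other tables, with 3.76 ± 0.061 FPKM in shRBCK1 and 3.50 ± 0.19 FPKM in shcontrol, and 2.10 ± 0.097 FPKM in siANKRD35 and 1.98 ± 0.12 FPKM in its control (SD, n = 3 each).

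**Figure D1:**
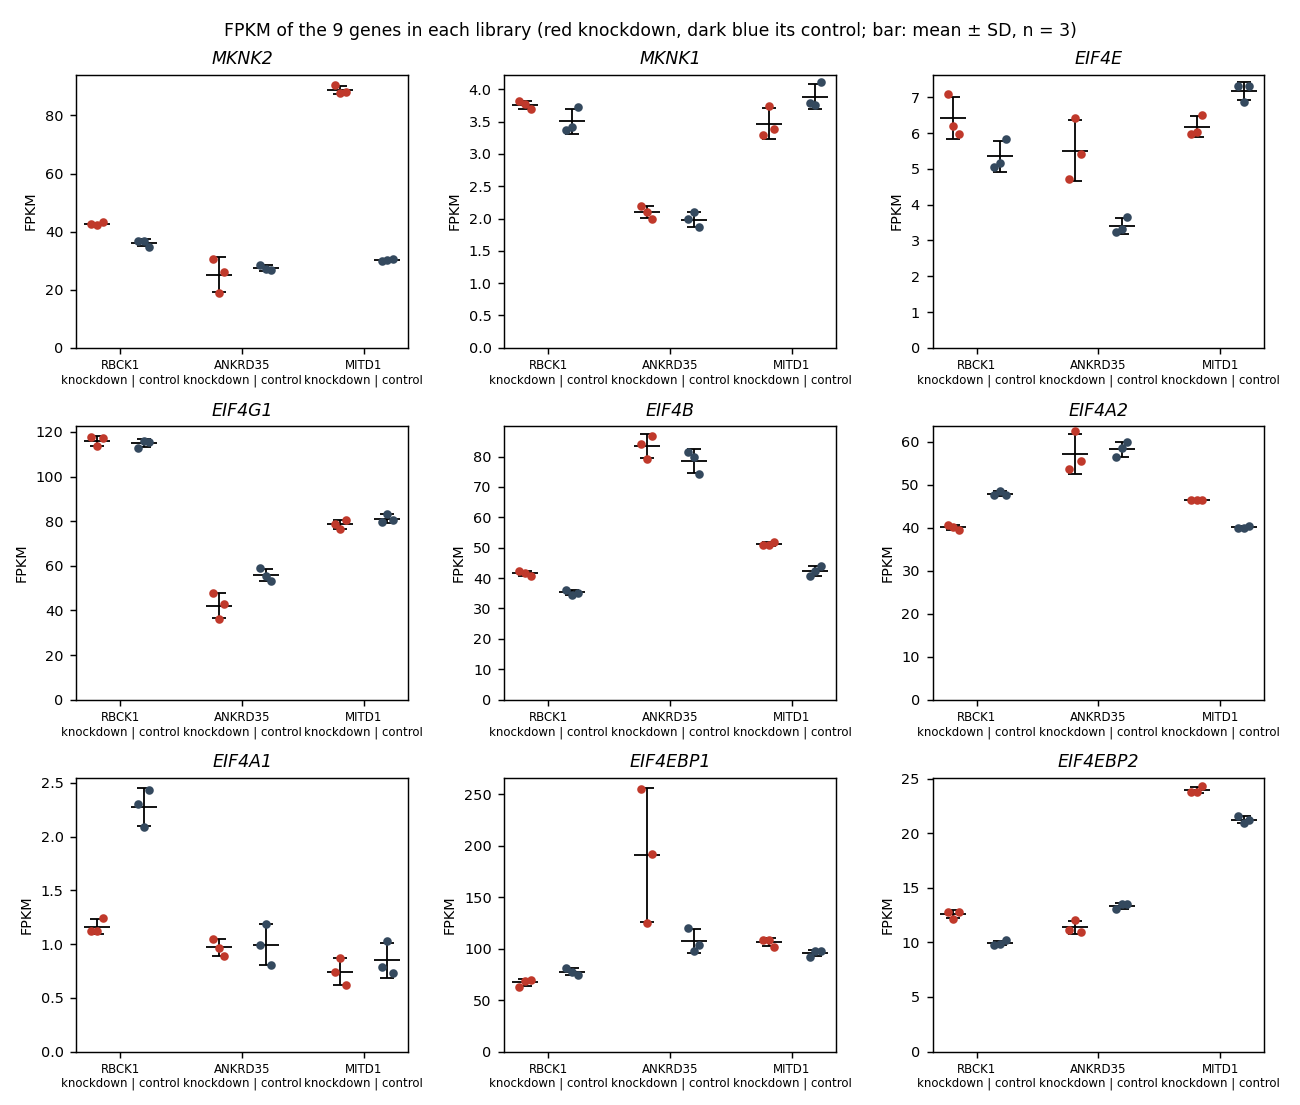
FPKM (y axis, from 0) of each of the 9 genes in each of the 18 libraries, red for knockdown and dark blue for its control, with the mean and SD of each group of 3. MKNK2 stands at 88.9 FPKM in siMITD1 against 30.2 FPKM in its control, and the siANKRD35 libraries spread widely for EIF4EBP1 and MKNK2.

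EIF4E, which binds the cap and limits the assembly of eIF4F, was higher in the RBCK1 and ANKRD35 knockdowns and lower in the MITD1 knockdown. The gene lies on chromosome 4 at 98871684 to 98930637 (minus strand, ENSG00000151247), and its promoter is the first printed above. In siANKRD35 it measured 4.70, 6.42 and 5.41 FPKM, against 3.24, 3.32 and 3.67 FPKM in the control. Every knockdown library lay above every control library, and the log2 change was 0.55 (SE 0.11), called. Its values were 7.08, 6.20 and 5.97 FPKM in shRBCK1 and 5.06, 5.15 and 5.84 FPKM in shcontrol. The groups were separate but close, and the call at a log2 change of 0.22 (SE 0.073) was lost in 7 of 13 alternative analyses. In siMITD1 it measured 5.97, 6.04 and 6.51 FPKM, against 7.31, 6.88 and 7.33 FPKM in the control. There the knockdown libraries all lay below the controls, with a log2 change of −0.19 (SE 0.05), called.

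The FPKM of EIF4E divides its reads by all annotated exon bases, 14067 of them, of which 924 are coding, so its level reads low beside genes with short exons. EIF4EP2, a processed pseudogene of EIF4E with which reads may be shared, measured 19.1 FPKM in siANKRD35 and 10.9 FPKM in its control, and 22.2 FPKM in shRBCK1 and 19.2 FPKM in shcontrol. The group means of the pseudogene were thus higher where those of EIF4E were higher. By library, in shRBCK1 both were highest in replicate 1. In siANKRD35 the pseudogene measured 20.4, 17.6 and 19.4 FPKM, the reverse of the order of EIF4E. It has no entry in the MITD1 table, where EIF4E was lower. The part of the pseudogene in the EIF4E values was not tested.

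MYC, set beside its known target EIF4E, fell to 35.65 ± 1.9 FPKM in shRBCK1, against 83.1 ± 1.8 FPKM in shcontrol (log2 change −1.20, limma adjusted p = 8.39e-07), the comparison in which EIF4E was higher. It rose to 48.2 ± 0.78 FPKM in siMITD1, against 42.7 ± 1.7 FPKM in its control, where EIF4E was lower (log2 change 0.17, limma adjusted p = 0.00268). In siANKRD35 it averaged 116 ± 11 FPKM and in the control 119 ± 3.9 FPKM, and did not pass. Whether MYC bears on EIF4E here was not tested, and the EIF4E call in the RBCK1 knockdown was lost in 7 of 13 alternative analyses.

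EIF4G1, the scaffold that joins eIF4E to the helicase and to the ribosome through eIF3, was called lower in the ANKRD35 knockdown and was not called in the other tables. It lies on chromosome 3 at 184314495 to 184335358 (plus strand, ENSG00000114867). It measured 47.65, 36.1 and 42.8 FPKM in siANKRD35, against 58.8, 55.2 and 53.35 FPKM in its control. The groups did not overlap, and the log2 change was −0.40 (SE 0.11). The call was lost in 6 of 13 alternative analyses, among them a correction for gene length, which gave −0.26. In shRBCK1 it averaged 116 ± 2.3 FPKM and in shcontrol 115 ± 1.8 FPKM, and in siMITD1 78.5 ± 2.2 FPKM and in its control 81.15 ± 2.0 FPKM (SD, n = 3 each). The groups overlapped in both of these tables.

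Of the RNA helicases, EIF4A2 moved by small amounts in the tables where it was called. EIF4A2 (chromosome 3, 186783205 to 186789900, plus strand, ENSG00000156976) measured 40.5, 40.25 and 39.4 FPKM in the shRBCK1 group, against 47.55, 48.6 and 47.5 FPKM in shcontrol. It measured 46.5, 46.4 and 46.4 FPKM in siMITD1, against 40.0, 40.0 and 40.4 FPKM in its control. The called changes thus ran in opposite directions, −0.25 (SE 0.029) in the RBCK1 knockdown and 0.21 (SE 0.026) in the MITD1 knockdown. In siANKRD35 EIF4A2 averaged 57.2 ± 4.6 FPKM, against 58.3 ± 1.7 FPKM in its control (SD, n = 3 each), with overlap. Small nucleolar RNAs lie within EIF4A2, and 10.5% of its exon bases are shared with other genes on the same strand.

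EIF4A1, the more abundant helicase paralog in most cells, was the lowest of the 9 genes in these tables and its values are uncertain. Its gene (chromosome 17, 7572706 to 7579005, plus strand, ENSG00000161960) shares 48.6% of its exon bases and 86.8% of its coding bases with other annotated genes on the same strand, among them AC016876.2 (2186 exon bases) and the readthrough gene SENP3-EIF4A1 (1586 exon bases). It measured 1.12, 1.12 and 1.24 FPKM in the shRBCK1 group, against 2.31, 2.09 and 2.435 FPKM in shcontrol, from 334 and 606 reads. The groups were separate, and the log2 change was −0.60 (SE 0.073), called, the largest of the set in that comparison. In the other tables it fell under the filter on low values and was not tested, with 0.969 ± 0.079 FPKM in siANKRD35 and 0.994 ± 0.19 FPKM in its control, and 0.744 ± 0.12 FPKM in siMITD1 and 0.848 ± 0.16 FPKM in its control (SD, n = 3 each). Its processed pseudogene EIF4A1P10 measured 10.1 FPKM in shRBCK1 and 14.2 FPKM in shcontrol, above EIF4A1 itself. In siMITD1 the pseudogene stood at 20.6 FPKM and in its control at 12.9 FPKM.

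EIF4B, which stimulates the helicase and is phosphorylated by the S6 and RSK kinases, was higher in the RBCK1 and MITD1 knockdowns. The gene lies on chromosome 12 at 53006158 to 53042209 (plus strand, ENSG00000063046). It measured 42.4, 41.7 and 40.65 FPKM in the shRBCK1 group, against 36.15, 34.6 and 35.1 FPKM in shcontrol (log2 change 0.23, SE 0.033). It measured 51.0, 50.7 and 51.9 FPKM in siMITD1, against 40.85, 42.2 and 43.9 FPKM in its control (log2 change 0.27, SE 0.033). Neither pair of groups overlapped, and both changes were called. In siANKRD35 it averaged 83.3 ± 3.9 FPKM and in the control 78.5 ± 3.9 FPKM (SD, n = 3 each), with overlap. Of its exon bases, 11.9% are shared with a gene on the opposite strand, and whether counting used the strand is not stated in the labels.

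The 4E-binding proteins ran in opposite directions in the RBCK1 and ANKRD35 tables and in the same direction in the MITD1 table. In the ANKRD35 table the change of EIF4EBP2, −0.21 (SE 0.071), was not called. EIF4EBP1 (chromosome 8, 38030341 to 38060365, plus strand, ENSG00000187840) measured 255, 125 and 192 FPKM in siANKRD35, against 120, 97.9 and 104 FPKM in its control. All 3 knockdown libraries lay above the controls, but they spread widely, and replicate 2 was just above the highest control. The log2 change was 0.77 (SE 0.24), called, and was 1.04 without siANKRD35 replicate 2 and 0.53 without replicate 1. In 8 of 13 alternative analyses the call was lost, among them quantile normalization, at 0.46. In shRBCK1 EIF4EBP1 measured 62.85, 68.8 and 69.9 FPKM, against 81.4, 77.1 and 74.5 FPKM in shcontrol, a called log2 change of −0.21 (SE 0.051). In siMITD1 it measured 109, 108 and 102.0 FPKM, against 92.2, 97.65 and 97.6 FPKM in its control, a called log2 change of 0.15 (SE 0.035). The direction of EIF4EBP1 was thus lower in the RBCK1 knockdown and higher in the other two.

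ATF4, the stress-response factor known to activate EIF4EBP1, was measured beside it. It fell to 106 ± 2.8 FPKM in shRBCK1, against 215 ± 3.1 FPKM in shcontrol (limma adjusted p = 3.73e-07). It rose to 273 ± 2.8 FPKM in siMITD1, against 202 ± 4.3 FPKM in its control (limma adjusted p = 1.26e-06). In siANKRD35 it measured 253, 188 and 232 FPKM, against 182, 180 and 183 FPKM in its control, and did not pass (limma adjusted p = 0.0829). Its means thus lay on the same side of the controls as those of EIF4EBP1 in the 3 tables; whether one bears on the other was not tested.

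EIF4EBP2, the paralog that is less often induced by stress, was higher in the RBCK1 and MITD1 knockdowns. It lies on chromosome 10 at 70404379 to 70428618 (plus strand, ENSG00000148730). It measured 12.8, 12.2 and 12.8 FPKM in the shRBCK1 group, against 9.78, 9.865 and 10.2 FPKM in shcontrol (log2 change 0.31, SE 0.038). It measured 23.8, 23.8 and 24.3 FPKM in siMITD1, against 21.6, 20.9 and 21.2 FPKM in its control (log2 change 0.17, SE 0.031). Both changes were called and the groups did not overlap. In siANKRD35 it measured 11.1, 12.1 and 11.0 FPKM, against 13.0, 13.5 and 13.5 FPKM in its control. Those libraries also did not overlap, and the log2 change of −0.21 (SE 0.071) was not called, though it was with quantile normalization (−0.29), with the test on reads (−0.32) and without siANKRD35 replicate 2 (−0.25).

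**Figure D2:**
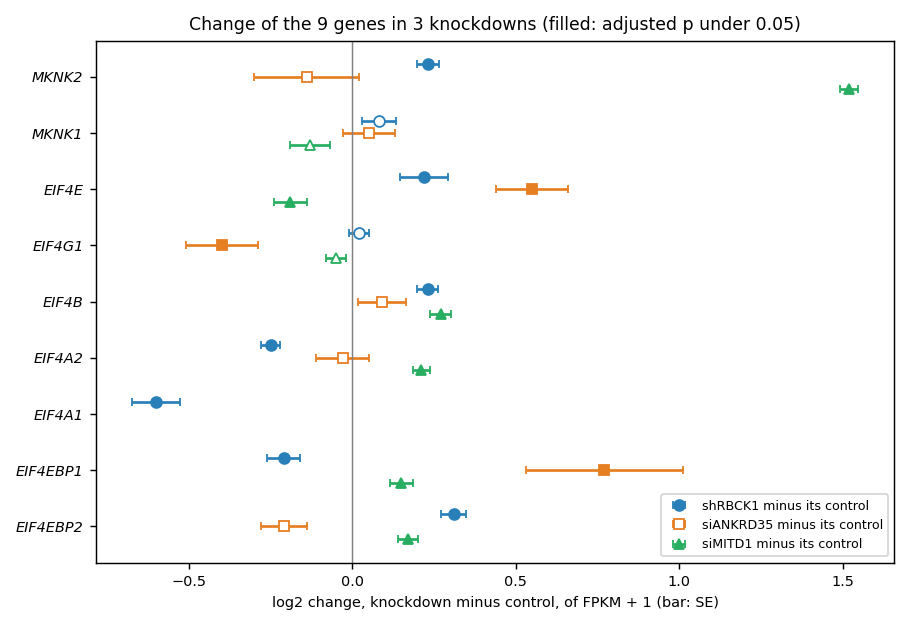
Log2 change of FPKM + 1, knockdown minus control (x axis), of the 9 genes in the RBCK1 (circles), ANKRD35 (squares) and MITD1 (triangles) comparisons, with SE bars and filled symbols for changes called by limma. MKNK2 at 1.52 in the MITD1 knockdown stands beyond all others, EIF4EBP1 at 0.77 and EIF4E at 0.55 lead in the ANKRD35 knockdown, and EIF4A1 was tested in the RBCK1 comparison alone.

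The siANKRD35 libraries differed among themselves in a way that ran with base composition. Over all genes, the deviation of a library from its group mean correlated with the GC content of the gene at a Spearman rho of 0.67, −0.72 and 0.43 in siANKRD35 replicates 1, 2 and 3 (across 11885 genes, which are not independent). The GC-rich genes of the set, MKNK2 (63.8% GC), EIF4EBP1 (62.0%) and EIF4G1 (57.6%), were lowest in siANKRD35 replicate 2, as was EIF4B (48.9%, against a median of 49.7% over the genes tested). The genes of lower GC content, EIF4E (42.0%), EIF4A2 (42.1%) and EIF4EBP2 (43.7%), were highest in that library. In the RBCK1 table, such deviations had a rho of −0.36, 0.09 and 0.32 in shRBCK1 replicates 1, 2 and 3, and of 0.17, 0.03 and −0.21 in shcontrol replicates 1, 2 and 3. The change of a gene in the ANKRD35 knockdown ran with its length, at a rho of −0.41 over 11890 genes, and not with GC content, at −0.01, while in the RBCK1 knockdown these were 0.03 and −0.15. After a correction for length and GC content, chosen after the data were seen, EIF4E was at 0.80 (SE 0.058), EIF4EBP1 at 0.52 (SE 0.14) and EIF4G1 at −0.25 (SE 0.057) on the log2 scale. All 3 were called there, and MKNK1 at 0.20 was called as well. In the RBCK1 knockdown the same correction gave 0.14 (SE 0.057) for EIF4E, which was not called. Correlations with GC content and length were not computed for the MITD1 table. The correction there gave 1.7 for MKNK2, against 1.52 in the fit reported, and 0.27 for EIF4EBP1, against 0.15. It gave 0.12 for EIF4EBP2, against 0.17, and −0.26 for EIF4E, against −0.19. All of these were called.

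Ratios between partners, formed within each library, cancel a scaling that all genes of a library share. They do not cancel deviations that run with GC content. EIF4EBP1 (62.0% GC) and EIF4G1 (57.6%) are richer in GC than EIF4EBP2 (43.7%) and EIF4E (42.0%), as is MKNK2 (63.8%) than MKNK1 (51.2%). The ratio of MKNK2 to MKNK1 was 27.5, 23.5 and 26.1 in siMITD1, against 7.92, 8.06 and 7.40 in its control. In shRBCK1 it was 11.1, 11.2 and 11.7, against 11.0, 10.8 and 9.34 in shcontrol, a narrow separation. In siANKRD35 it averaged 11.99 ± 2.7, against 13.9 ± 0.87 in its control (SD, n = 3 each), with overlap.

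Between the inhibitors, the ratio of EIF4EBP1 to EIF4EBP2 was 4.91, 5.65 and 5.47 in shRBCK1, against 8.33, 7.82 and 7.32 in shcontrol. In siANKRD35 it was 23.0, 10.3 and 17.5, against 9.23, 7.26 and 7.68 in its control. These groups were separate, in opposite directions. In siMITD1 the ratio averaged 4.44 ± 0.21, against 4.51 ± 0.21 in its control (SD, n = 3 each), and the groups overlapped.

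The sum of both inhibitors over EIF4E, a ratio of RNAs and not of proteins, was 10.7, 13.05 and 13.9 in shRBCK1, against 18.04, 16.9 and 14.5 in shcontrol. It was 22.2, 21.8 and 19.4 in siMITD1, against 15.6, 17.2 and 16.2 in its control. The ratio was thus lower in the RBCK1 knockdown and higher in the MITD1 knockdown, without overlap. Within shRBCK1 and within shcontrol, it ran in the order of the libraries' rho with GC content given above. The part of GC content in the separation was not tested. In siANKRD35 it ran from 21.35 to 56.7 and in its control from 31.9 to 41.1. The ratio of EIF4G1 to EIF4E averaged 7.895 ± 2.3 in siANKRD35 and 16.4 ± 1.8 in its control, 18.2 ± 1.5 in shRBCK1 and 21.6 ± 1.5 in shcontrol, and 12.7 ± 0.39 in siMITD1 and 11.3 ± 0.68 in its control (SD, n = 3 each), with no overlap in any pair. The separation was narrow for RBCK1, where shRBCK1 reached 19.66 and shcontrol began at 19.82. For MITD1, the lowest siMITD1 library was at 12.41 and the highest control at 12.11. Within shRBCK1 and within siANKRD35 this ratio ran in the order of the libraries' rho with GC content, and within their controls it did not. The part of GC content in these separations was not tested.

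**Figure D3:**
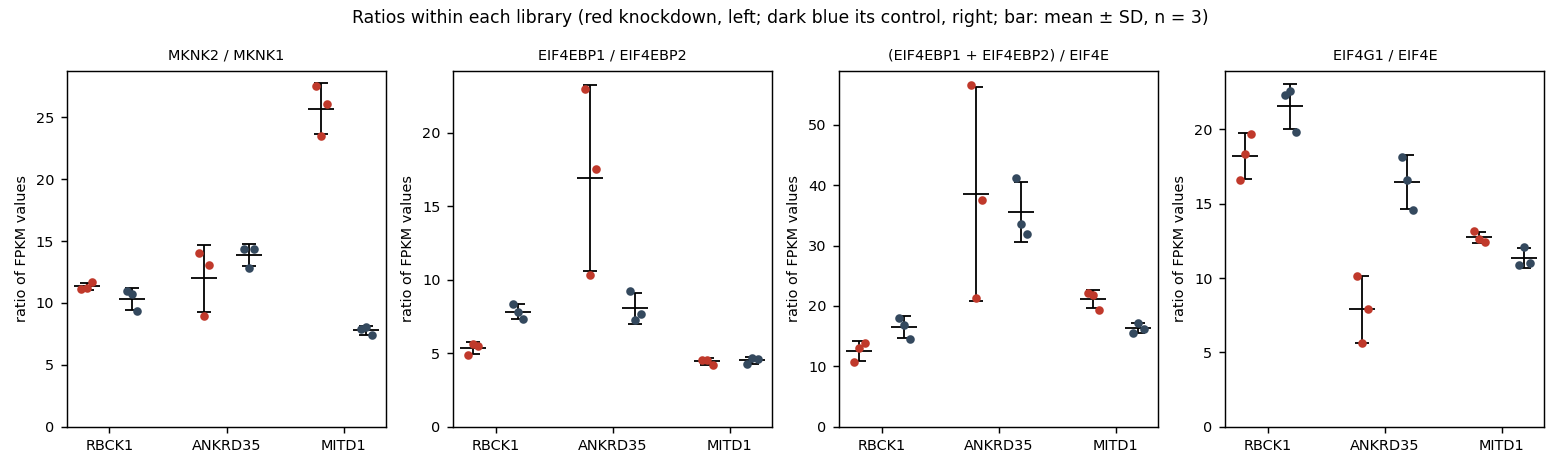
Ratios of FPKM values within each library (y axis, from 0) for 4 pairs or sums of the genes, red for knockdown on the left and dark blue for its control on the right, with the mean and SD of each group of 3. MKNK2 over MKNK1 averages 25.7 in siMITD1 against 7.79 in its control, and EIF4EBP1 over EIF4EBP2 averages 5.345 in shRBCK1 against 7.82 in shcontrol.

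By level per length, the order of the lower genes was the same in each group: EIF4EBP2 had rank 6, EIF4E rank 7, MKNK1 rank 8 and EIF4A1 rank 9, without overlap between neighbours. The upper part of the order changed. EIF4G1 led in shRBCK1 and shcontrol, and EIF4EBP1 led in the other 4 groups. MKNK2 had rank 2 in siMITD1 at 88.85 ± 1.4 FPKM and rank 5 in its control at 30.2 ± 0.25 FPKM (SD, n = 3 each). MKNK2 and EIF4B were neighbours that overlapped in shRBCK1 and in shcontrol, and EIF4A2 and EIF4G1 were neighbours that overlapped in the control of siANKRD35. All other neighbours in the order were separate.

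The counts of called genes in the set are set beside those of all genes. In the RBCK1 knockdown 4 of 9 were called higher and 3 lower, where 24.1% of 12227 genes were called higher, 24.9% lower and 49.1% in either direction. In the ANKRD35 knockdown 2 of the 8 tested were called higher and 1 lower, where 19.4% of 11890 genes were called higher, 16.9% lower and 36.3% in either direction. In the MITD1 knockdown 5 of 8 were called higher and 1 lower, where 30.0% of 10415 genes were called higher, 35.6% lower and 65.6% in either direction. Knockdown and control libraries were fully separate for 7 of 9, 4 of 8 and 7 of 8 of the genes tested for RBCK1, ANKRD35 and MITD1, against 59.0%, 52.2% and 70.4% of all genes. The median log2 change of the set was 0.08, 0.01 and 0.16, against 0.01, 0.03 and −0.03 for all genes tested. As the genes were chosen with these comparisons known, nothing is read from these counts.

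The differences between knockdowns were fitted over all 18 libraries in 9257 genes common to the tables, where 52.0% of genes differed between the RBCK1 and ANKRD35 knockdowns, 51.7% between RBCK1 and MITD1, and 62.6% between ANKRD35 and MITD1. Of 8 genes of the set, 6, 4 and 7 were called in these contrasts, given in the same order. The fit pooled the spread of a gene over all 18 libraries, so that of siANKRD35 enters every SE. The change of MKNK2 was lower by 1.29 log2 units (SE 0.15) in the RBCK1 than in the MITD1 knockdown. EIF4EBP2 was higher by 0.52 (SE 0.063) in the RBCK1 than in the ANKRD35 knockdown. MKNK1 was called in 1 of its 3 contrasts and EIF4E, MKNK2 and EIF4A2 in all 3.

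The counts over the lists below are to be read beside the shares of all genes called higher and lower in a comparison, 24.1% and 24.9% for RBCK1, 19.4% and 16.9% for ANKRD35 and 30.0% and 35.6% for MITD1. The ANKRD35 counts include siANKRD35 replicate 2 and changes that run with gene length. Some of the counts that moved without a siANKRD35 library or with length correction are given, and others that moved are not. These alternatives were chosen for the lists after the data were seen.

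Around these genes, the other partners of the cap complex and the eIF4 paralogs were mixed. In the RBCK1 knockdown 5 of 15 tested rose and 1 fell, led by PABPC4, a poly(A)-binding protein, at 35.85 ± 1.0 FPKM in shRBCK1 and 28.3 ± 0.59 FPKM in shcontrol. In the ANKRD35 knockdown 4 rose and 4 fell of 15. With length correction 3 rose and 2 fell. PABPC1, the main poly(A)-binding protein that contacts eIF4G, fell to 145 ± 12 FPKM in siANKRD35, against 223 ± 2.9 FPKM in its control (log2 change −0.62, limma adjusted p = 0.00216). EIF4E2, a cap-binding paralog that takes part in translational repression, rose to 10.7 ± 0.69 FPKM in siANKRD35, against 7.26 ± 0.12 FPKM in its control. In the MITD1 knockdown 5 rose and 5 fell of 15. PDCD4, which binds eIF4A and blocks it, rose to 13.6 ± 0.63 FPKM in siMITD1, against 8.78 ± 0.52 FPKM in its control (log2 change 0.57, limma adjusted p = 2.27e-05), and EIF4ENIF1, which carries eIF4E into the nucleus, fell to 5.17 ± 0.23 FPKM in siMITD1, against 7.12 ± 0.12 FPKM in its control.

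Of the kinases upstream of MNK and eIF4B, 5 rose and 1 fell of 12 tested in the RBCK1 knockdown, 2 rose and 0 fell of 11 in the ANKRD35 knockdown, and 3 rose and 4 fell of 12 in the MITD1 knockdown. Without siANKRD35 replicate 2 the ANKRD35 counts were 5 and 2, and without replicate 3 they were 0 and 0. MAP2K3, a kinase that activates p38, fell to 17.0 ± 0.77 FPKM in shRBCK1, against 28.2 ± 1.3 FPKM in shcontrol, and to 9.21 ± 0.55 FPKM in siMITD1, against 14.7 ± 0.58 FPKM in its control. MAPK14, the p38 alpha kinase, rose to 16.55 ± 0.73 FPKM in shRBCK1, against 12.9 ± 0.086 FPKM in shcontrol, and to 9.31 ± 0.72 FPKM in siANKRD35, against 7.48 ± 0.21 FPKM in its control.

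Among mTORC1 and its regulators, which control the 4E-binding proteins by phosphorylation, 4 rose and 6 fell of 20 in the RBCK1 knockdown, 6 rose and 5 fell of 20 in the ANKRD35 knockdown, and 5 rose and 7 fell of 19 in the MITD1 knockdown. Without siANKRD35 replicate 2 the ANKRD35 counts were 9 and 8, and without replicate 3 they were 5 and 3. DDIT4 (REDD1), a stress-induced inhibitor of mTORC1, rose in each: to 54.5 ± 4.5 FPKM in shRBCK1, against 39.7 ± 2.0 FPKM in shcontrol; to 147 ± 46 FPKM in siANKRD35, against 65.6 ± 7.2 FPKM in its control; and to 535 ± 17 FPKM in siMITD1, against 269.6 ± 14 FPKM in its control. SESN2, another inhibitor of mTORC1 signalling and a known ATF4 target, fell to 7.62 ± 0.36 FPKM in shRBCK1, against 13.4 ± 0.68 FPKM in shcontrol, and rose to 21.7 ± 0.41 FPKM in siMITD1, against 12.1 ± 1.2 FPKM in its control. RHEB, the GTPase that activates mTORC1, fell to 49.7 ± 1.4 FPKM in siMITD1, against 78.7 ± 2.3 FPKM in its control (log2 change −0.65, limma adjusted p = 8.27e-07).

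The eIF3 subunits, which link eIF4G to the small ribosomal subunit, had 3 rises and 4 falls of 13 in the RBCK1 knockdown, 7 and 1 in the ANKRD35 knockdown, and 3 and 6 in the MITD1 knockdown. Without siANKRD35 replicate 3 the ANKRD35 counts were 3 and 1. EIF3A fell to 44.5 ± 2.6 FPKM in siANKRD35, against 64.0 ± 2.3 FPKM in its control, and EIF3K rose to 70.6 ± 7.4 FPKM there, against 46.8 ± 0.35 FPKM. EIF3F rose to 22.2 ± 0.41 FPKM in siMITD1, against 12.3 ± 0.28 FPKM in its control (log2 change 0.80, limma adjusted p = 4.43e-07).

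The list of eIF1, eIF2, eIF2B, eIF5 and eIF6 genes had 2 rises and 7 falls of 14 in the RBCK1 knockdown. Its median log2 change was −0.13 against 0.01 for all genes. The list is labelled start codon selection, a role that not all of its factors have. EIF6, which does not have it, was among the falls, at a log2 change of −0.38. EIF1, which guards the choice of the AUG, fell to 115 ± 3.1 FPKM in shRBCK1, against 166 ± 3.0 FPKM in shcontrol, and EIF5 fell to 40.35 ± 0.96 FPKM, against 57.75 ± 0.52 FPKM. In the ANKRD35 knockdown 6 rose and 0 fell, with a median of 0.24 against 0.03 for all genes, and in the MITD1 knockdown 8 rose and 4 fell, with a median of 0.20 against −0.03. The ANKRD35 counts were 7 and 3 without siANKRD35 replicate 2 and 5 and 3 with length correction. EIF2AK2 (PKR), an interferon-induced kinase that phosphorylates eIF2 alpha, fell to 8.78 ± 0.35 FPKM in shRBCK1, against 28.0 ± 0.85 FPKM in shcontrol (log2 change −1.57, limma adjusted p = 1.41e-07). Of the eIF2 kinases as a group, 1 rose and 1 fell of 4 in the RBCK1 knockdown, 0 rose and 1 fell in the ANKRD35 knockdown (0 and 3 without siANKRD35 replicate 2, and 0 and 0 without replicate 1 or 3), and 3 rose and 1 fell in the MITD1 knockdown. The elongation and termination factors had 0 rises and 1 fall of 7, 1 rise and 0 falls of 7, and 4 rises and 1 fall of 6 in the RBCK1, ANKRD35 and MITD1 knockdowns. With length correction the ANKRD35 counts were 0 and 1, and without siANKRD35 replicate 2 they were 2 and 1, and without replicate 1 they were 1 and 1. EEF1A1, which delivers tRNA to the ribosome, rose to 1467 ± 31 FPKM in siMITD1, against 1104 ± 23 FPKM in its control.

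**Figure D4:**
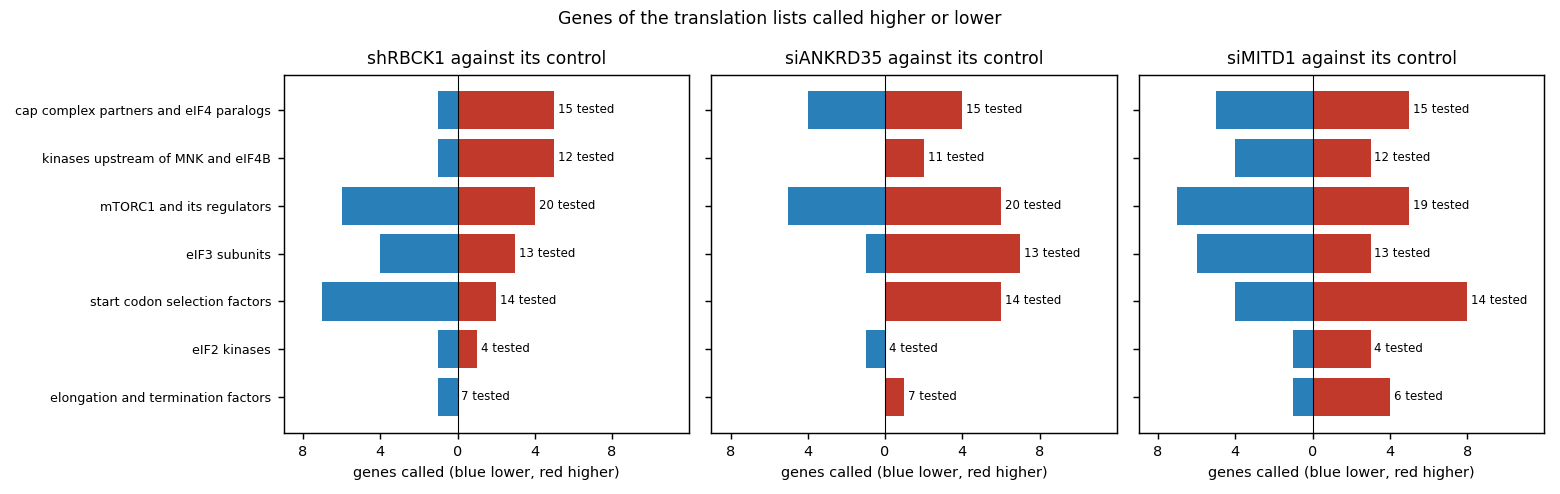
Genes of 7 lists around cap-dependent translation called lower (blue, left of 0) or higher (red, right of 0) by limma in each knockdown against its control (x axis, number of genes), with the number tested beside each bar. The list labelled start codon selection factors, which also holds EIF6, has 7 of 14 lower in the RBCK1 knockdown. It has 0 of 14 lower in the ANKRD35 knockdown, where 3 were lower without siANKRD35 replicate 2.

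Genes whose levels ran most like those of the set were ranked by Pearson's r over the 18 libraries, after each gene was centred on its mean in its own table, among 9257 genes. For MKNK2 these were GALNT2 (r = 0.991), GANAB (r = 0.986) and NDRG1 (r = 0.981), with log2 changes of 0.71, 1.21 and 1.41 in the MITD1 knockdown. EIF4E ran with XRCC5, HPRT1 and FBXO5 (r from 0.953 to 0.956). EIF4EBP1 ran with RPS19BP1, GYPC and CD151 (r from 0.975 to 0.979), and EIF4EBP2 with ADGRL2, CLCN3 and GSK3B (r from 0.956 to 0.975). EIF4G1 ran with ERBB2, ZC3H7B and COL4A2, EIF4A2 with VIM, BTG1 and CSGALNACT2, and EIF4B with VAT1, MAGED1 and TMEM107 (r from 0.929 to 0.973). Within the set, EIF4E and EIF4G1 ran in opposite directions (r = −0.79), as did EIF4EBP1 and EIF4EBP2 (r = −0.58), while MKNK2 and EIF4B ran together (r = 0.77). The libraries share tables, depth and base composition, so these values describe likeness only.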

How the data were processed

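RNA-seq of 18 libraries was compared in 3 pairs of groups of 3, mapped by sample titles. The deposited values are FPKM, scaled by the authors in 3 separate tables, per the file headers. Per the labels' protocols, libraries were made from total RNA with a directional kit. The submitters' processing notes name mm10, a mouse build, whereas the tables hold human genes whose coordinates equal those of GENCODE 29 on GRCh38 for all 9 members. The aligner, counting tool and counting strand are not given in the sources used here. In the ANKRD35 table, 6 value columns matching no sample title were left out, and the knockdown columns are named ShRNA where titles say si.

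Each comparison was fitted with limma-trend 3.58.1 (R 4.3.3) on log2(FPKM + 1), which understates changes of low genes, over all genes that reached 1 FPKM in 3 or more of 6 libraries, with two-sided tests, Benjamini-Hochberg adjustment, a call at an adjusted p under 0.05 and no replicate block. Differences between knockdowns were fitted over the 18 libraries, with the residual variance of a gene pooled over all groups. The spread of the siANKRD35 libraries thus enters the SE of every contrast, also of RBCK1 against MITD1. Nothing in the labels says that replicates were separate cultures, so p-values measure the spread between libraries, which may be technical. Reads were recovered as FPKM times gene length within 0.01 reads: 100% of values came out whole in the RBCK1 and ANKRD35 tables and 91.9% to 92.1% per library in the MITD1 table, which lists no lengths and took those of the RBCK1 table. Counting error follows from these reads. Members and gene lists were chosen with earlier results of these data known. The named genes are the 9 members, the targets, MYC and ATF4, up to 3 called genes per list and comparison with the largest change, no overlap and 5 FPKM or more as the mean of a group, and the 3 genes most like each member. Some genes that this rule names are not reported here. The fit was tested on simulated data. Alternatives were another pseudocount, no filter, quantile normalization, length correction, voom on recovered reads, a replicate block and leaving out each library, with a correction for length and GC content added after the data were seen. Tables were handled with Python 3.11.15, numpy 2.4.6 and pandas 2.3.3.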

Additional observations from a re-analysis of the deposited data

Results flagged for a closer look

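Of 24 differences between the changes of a gene in 2 knockdowns, 17 passed limma at an adjusted p under 0.05 over 9257 genes. They combine comparisons with which the genes were chosen, so they are given as values, in log2 units, the first knockdown minus the second. MKNK2 differed by 0.38 between the RBCK1 and ANKRD35 knockdowns, by −1.29 between RBCK1 and MITD1 and by −1.67 between ANKRD35 and MITD1. EIF4E differed by −0.33, 0.41 and 0.74 in the same contrasts, and EIF4A2 by −0.22, −0.46 and −0.24. EIF4G1 differed by 0.42 between RBCK1 and ANKRD35 and by −0.36 between ANKRD35 and MITD1. EIF4EBP1 differed by −0.98 and 0.62, and EIF4EBP2 by 0.52 and −0.38, in these 2 contrasts. Between RBCK1 and MITD1, EIF4EBP1 differed by −0.36 (SE 0.23) and did not pass. That SE includes the wide spread of siANKRD35, and within the RBCK1 and MITD1 comparisons the SE of EIF4EBP1 was 0.051 and 0.035. MKNK1 differed by 0.21 between RBCK1 and MITD1, and EIF4B by −0.18 between ANKRD35 and MITD1. The values with ANKRD35 include siANKRD35 replicate 2, in which deviations from the group mean ran against GC content, and without it 18 of the 24 differences passed.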

How the results depend on the processing

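Over 25 changes of single genes and 13 alternatives each, 296 of 325 values kept their call, 22 lost it, 7 gained it, and 0 called changes reversed. In the ANKRD35 knockdown the 3 called genes of the set became 1 with no filter on low values and 1 with length correction. With no filter, the log2 changes of EIF4G1 and EIF4EBP1 stayed at −0.4 and 0.77, while 27910 genes were tested in place of 11890. With length correction these changes were −0.26 and 0.52. The cause of the lost calls was not tested. Leaving out 1 library gave 1 to 4 called genes of the set and 2157 to 6518 called genes of all, against 4312. The highest count was without siANKRD35 replicate 2; without replicate 3 it was 2814, and without control replicates 1, 2 and 3 it was 2218, 2157 and 2240. The ranges were 4833 to 5445 genes and 6 to 7 of the set for RBCK1, 6208 to 6345 genes and 6 to 7 of the set for MITD1, and 13 to 18 differences between knockdowns.

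Voom on recovered reads called 4192 genes higher and 2669 lower in the RBCK1 knockdown, against 2951 and 3049 in the fit reported, and 1724 and 2755 in the ANKRD35 knockdown, against 2305 and 2007. Quantile normalization called 1675 and 2036 in the ANKRD35 knockdown. With a replicate block, 5347 genes were called for RBCK1, 4139 for ANKRD35 and 6859 for MITD1, with 6, 3 and 6 of the set, and 15 differences between knockdowns. Deviations from the group mean correlated from −0.087 to 0.179 between same-numbered libraries. With 3 libraries a group, such values cannot show whether numbers pair them. The highest was siANKRD35 replicate 1, at 0.179 with its own number and at most −0.08 with the others. The block changed the SE of EIF4EBP1 in the ANKRD35 knockdown from 0.24 to 0.15. Genes near the filter, such as EIF4A1, rest on few reads, 182 to 606 a group for that gene.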
